A study of Mus musculus with 24 samples.

Results

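Hira and 7 genes that work with it in placing histones on DNA were followed in the prefrontal cortex of mice that carry a single copy of Hira. The 8 genes were chosen by name: Hira, Ubn1, Ubn2, Cabin1, Asf1a, Asf1b, Daxx and Atrx. Each had exactly 1 probe set with a single gene symbol on the array, so all 8 of the 18821 genes tested were measured and none was lost to a filter. The mutant group held 12 samples of genotype Df16(A)+/-, heterozygous for an engineered deletion on chromosome 16 that models the human 22q11.2 microdeletion, and the control group 12 wild-type (WT) samples. All came from males of 8 weeks on a C57BL6/J background. The deletion is carried in every cell and takes away a segment of many genes, Hira among them, so an effect of Hira alone cannot be told apart from that of the other deleted genes. The data are 24 Affymetrix arrays, 12 per genotype, and each value is an RMA expression value on the log2 scale, on which a difference of 1 is a doubling. The labels number the arrays of a genotype as replicates without saying that each is a separate animal. Each array is counted as 1 mouse below, and the p-values measure the spread between these samples.

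Histone chaperones are proteins that carry histones and hand them to DNA. The HIRA complex places the histone variant H3.3 outside of DNA replication, at genes and regulatory regions, and consists of the scaffold HIRA, a ubinuclein (UBN1 or UBN2) that recognises H3.3, and CABIN1; ASF1A hands the H3-H4 pair to it. A separate pathway, the chaperone DAXX with the chromatin remodeller ATRX, places H3.3 at heterochromatin and telomeres. Neurons do not divide, so H3.3 builds up in their chromatin with age, and mutations of ATRX cause intellectual disability in humans.

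The start of Hira lies inside the deleted segment, and that of Ubn1, a partner on the same chromosome, lies outside it. Their RefSeq promoters (250 bases before to 50 after the start, build GRCm38.p6, plus strand) are printed to show what the mutant chromosome has lost in the one case and kept in the other. The Hira promoter spans chr16:18876500-18876799 and the Ubn1 promoter chr16:5049807-5050106. Capitals mark the letters GGGCGG, the GC box bound by Sp1-type factors, and CCAAT, the CCAAT box, both searched on both strands.
Hira: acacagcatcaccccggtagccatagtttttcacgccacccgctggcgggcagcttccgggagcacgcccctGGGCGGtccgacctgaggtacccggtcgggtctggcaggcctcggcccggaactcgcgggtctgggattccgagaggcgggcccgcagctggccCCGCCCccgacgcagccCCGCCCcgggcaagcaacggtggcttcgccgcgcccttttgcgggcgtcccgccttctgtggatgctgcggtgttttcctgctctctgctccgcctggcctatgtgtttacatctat
Ubn1: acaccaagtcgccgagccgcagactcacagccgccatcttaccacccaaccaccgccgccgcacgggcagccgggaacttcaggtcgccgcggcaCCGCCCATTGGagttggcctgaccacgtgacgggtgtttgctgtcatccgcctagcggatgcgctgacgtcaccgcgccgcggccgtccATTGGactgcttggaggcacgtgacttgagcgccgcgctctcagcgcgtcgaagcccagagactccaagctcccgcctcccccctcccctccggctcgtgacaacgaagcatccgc
The Hira promoter held 3 GC boxes and no CCAAT box, and the Ubn1 promoter 1 GC box and 2 CCAAT boxes, 1 of which adjoins the GC box without sharing a base. Of 32851 promoters of this length, 35.7% held a GC box and 37.4% a CCAAT box. Both promoters were rich in CG dinucleotides, with 31 in Hira and 36 in Ubn1 against a median of 7 over all promoters.

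The scaffold of the complex was lower in every mutant. Hira ranged from 8.21 through a median of 8.30 to 8.50 over the 12 mutants and from 8.84 through 8.96 to 9.06 over the 12 wild types. The highest mutant (replicate 8) lay below the lowest wild type (replicate 9), so the groups did not overlap. The mean was 8.32 ± 0.09 (SD, n = 12) in mutants against 8.96 ± 0.06 (SD, n = 12) in wild types, so Hira changed by -0.64 ± 0.03 on the log2 scale (SE; 95% interval -0.70 to -0.57; limma, adjusted p = 1.01e-13). That is 64.3% of the wild-type signal, with an interval of 61.5% to 67.3%. The 50% that 1 copy in 2 would give, were signal proportional to copy number, lay below this interval. This was not particular to Hira: all 26 measured genes of the deleted segment lay above 50%. The lowest, Slc25a1, was at 54.5% (95% interval 52.2% to 56.9%). The array gives no calibration against copy number. Each cell of a mutant carries 1 copy of Hira. Whether a shift in cell types adds to the difference cannot be told from these bulk samples and was not tested. Over all genes, 0.76% passed the test in either direction, 0.228% were lower, and in 0.106% all 12 mutants lay below all 12 wild types; Hira was chosen as a deleted gene, so its place among them is the check of the genotype labels and not a further finding.

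**Figure D1:**
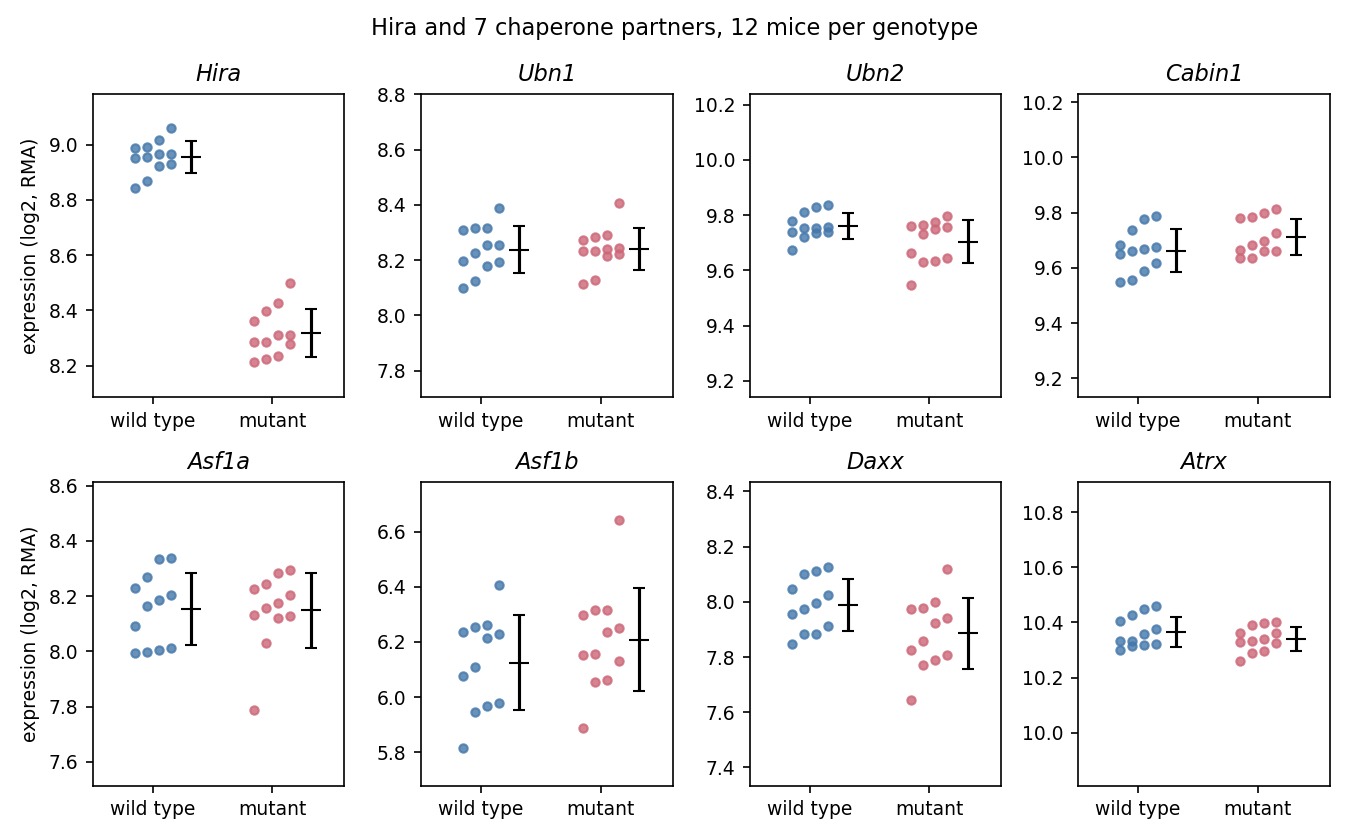
Expression of the 8 genes (log2, RMA; each vertical axis spans the same 1.1 units around its own gene) in 12 wild-type (blue) and 12 mutant (red) mice, 1 point per mouse, with mean and SD beside the points. The mutants of Hira lie at 8.21 to 8.50 and its wild types at 8.84 to 9.06, while the genotypes overlap in the other 7 genes.

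Hira sits at the end of the deleted segment. The 6 measured genes before it in the order of the RefSeq gene table all belong to the interval. Next to Hira, Mrpl40, a mitochondrial ribosomal protein, had a log2 fold change of -0.76, 2510002D24Rik one of -0.82 and Ufd1, a cofactor in protein degradation, one of -0.88. Farther in, the replication factor Cdc45 had -0.30, the tight-junction gene Cldn5 -0.63 and Tbx1, a transcription factor of heart development, -0.17 (adjusted p = 0.119). By size of decrease Hira was 14th of 26 measured interval genes, between Txnrd2 (-0.64) and Cldn5 (-0.63), whose changes were within 1 SE of that of Hira. Of the 26, 6 did not pass the test (limma), and Hira was also 14th among the 20 that did. The 6 measured genes after Hira were olfactory receptor genes (Olfr164 to Olfr170), and none passed the test (limma; 1, Olfr164, had an unadjusted p under 0.05, at 0.0238). Their log2 fold changes ran from -0.09 (Olfr165, adjusted p = 0.549) to 0.17 (Olfr164, adjusted p = 0.331). All 6 probe sets were dim, at percentiles 3.52 to 25.6 of brightness over all genes, against percentile 65.1 for Hira, so they show little of where the loss of signal stops.

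**Figure D2:**
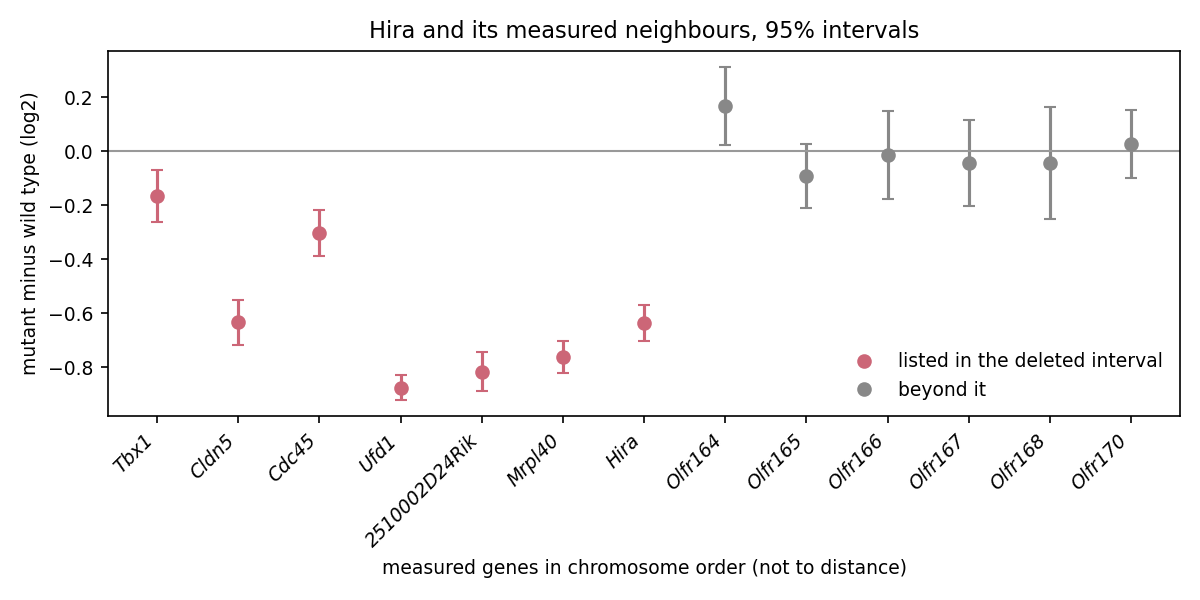
Log2 difference between mutant and wild-type means with its 95% interval for Hira and the 6 measured genes on each side, in chromosome order and not to distance. The listed interval genes (red) run down to -0.88 at Ufd1; the olfactory receptor genes beyond Hira (grey) lie between -0.09 and 0.17.

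None of the 7 partners passed the test (limma), against 0.76% of all genes. The median of their log2 fold changes was -0.0037, with 4 below 0 and 3 above, beside a median of -0.0014 over all genes. One partner, Daxx, had an unadjusted p under 0.05, a level reached by 11.9% of all genes. The widest 95% interval, that of Asf1b, ended at 0.23 on the log2 scale, and the lowest bound, that of Daxx, at -0.20, so a decrease of the size of that in Hira lay outside the interval of every partner.

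The ubinucleins, which give the complex its preference for H3.3, were measured first. Ubn1 ranged from 8.11 through 8.24 to 8.41 in mutants and from 8.10 through 8.24 to 8.39 in wild types. The groups overlapped almost wholly, with 6 mutants on each side of the wild-type median. The log2 fold change was 0.0027 ± 0.034 (SE; 95% interval -0.067 to 0.072; limma, adjusted p = 0.986), with 0.073 in arrays 1 to 12 and -0.063 in arrays 13 to 24 of the labels' running order. Its paralog Ubn2 ranged from 9.55 through 9.74 to 9.80 in mutants and from 9.67 through 9.75 to 9.84 in wild types. Here 5 mutants, replicates 5, 7, 8, 11 and 12, lay below the lowest wild type and the other 7 among the wild types. The log2 fold change was -0.057 ± 0.028 (95% interval -0.11 to 0.0015; adjusted p = 0.435), with 0.00040 over arrays 1 to 12 and -0.11 over arrays 13 to 24. The difference between the changes of the paralogs was 0.059 (permutation test, two-sided, p = 0.143, adjusted over 2 pairs 0.286).

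Cabin1, which also binds calcineurin and represses the MEF2 transcription factors, was the third subunit. It ranged from 9.63 through 9.69 to 9.81 in mutants and from 9.55 through 9.67 to 9.79 in wild types. The 2 highest mutants, replicates 2 and 7, lay above all wild types, and 4 wild types lay below all mutants. Its log2 fold change was 0.049 ± 0.031 (SE; 95% interval -0.014 to 0.11; limma, adjusted p = 0.551), with 0.079 over arrays 1 to 12 and 0.013 over arrays 13 to 24.

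The ASF1 chaperones, which bring H3-H4 pairs to HIRA and to the replication chaperone CAF-1, varied more between mice. Asf1a, the form that serves HIRA, ranged from 7.79 through 8.17 to 8.29 in mutants and from 7.99 through 8.18 to 8.34 in wild types. The mutant of replicate 7 stood apart at the low end, and the other 11 lay within the range of the wild types. Its log2 fold change was -0.0037 ± 0.053 (SE; 95% interval -0.11 to 0.10; limma, adjusted p = 0.987), and the sign differed between arrays 1 to 12 (-0.067) and arrays 13 to 24 (0.075). Asf1b, the form tied to dividing cells, ranged from 5.89 through 6.20 to 6.64 in mutants and from 5.82 through 6.16 to 6.41 in wild types. Apart from the mutant of replicate 12, at the top, the genotypes covered the same range. The log2 fold change was 0.084 ± 0.070 (95% interval -0.060 to 0.23; adjusted p = 0.672).

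Without the mutants of replicates 5, 9 and 10, which lay farthest from the wild types on the first principal component of all arrays, the change of Asf1b was 0.14 (limma, adjusted p = 0.561, from 0.561 to 0.826 over the 12 settings that gave a value). Of 6 measured markers of proliferating cells none passed the test (limma; 0 had an unadjusted p under 0.05), 4 lay below 0 and the median was -0.036. Their summed log2 values ran from 30.7 to 32.4 in mutants and from 31.0 to 34.8 in wild types, and their part in the values of Asf1b was not tested. The change of Asf1a differed from that of Asf1b by -0.087 (permutation test, two-sided, p = 0.378, adjusted over 2 pairs 0.378).

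Daxx and Atrx form the H3.3 pathway that does not use HIRA. Daxx ranged from 7.64 through 7.89 to 8.12 in mutants and from 7.85 through 7.98 to 8.13 in wild types. There were 5 mutants below the lowest wild type, those of replicates 1, 5, 9, 10 and 12, and 10 of 12 below the wild-type median. The mutant mean was 7.89 ± 0.13 (SD, n = 12) and the wild-type mean 7.99 ± 0.10, a log2 fold change of -0.10 ± 0.05 (SE; 95% interval -0.20 to -0.0095; limma, unadjusted p = 0.0321, adjusted p = 0.367). The difference therefore did not pass, and without the mutants of replicates 5, 9 and 10, of which all 3 are among those 5, it was -0.071 (adjusted p = 0.715, from 0.273 to 0.715 over the 13 settings). Atrx, a single-copy X-linked gene in these males, ranged from 10.26 through 10.34 to 10.40 in mutants and from 10.30 through 10.35 to 10.46 in wild types. It varied least between mice of the 8 genes within the mutants, with an SD of 0.04, and its log2 fold change was -0.025 ± 0.024 (95% interval -0.074 to 0.024; adjusted p = 0.715).

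**Figure D3:**
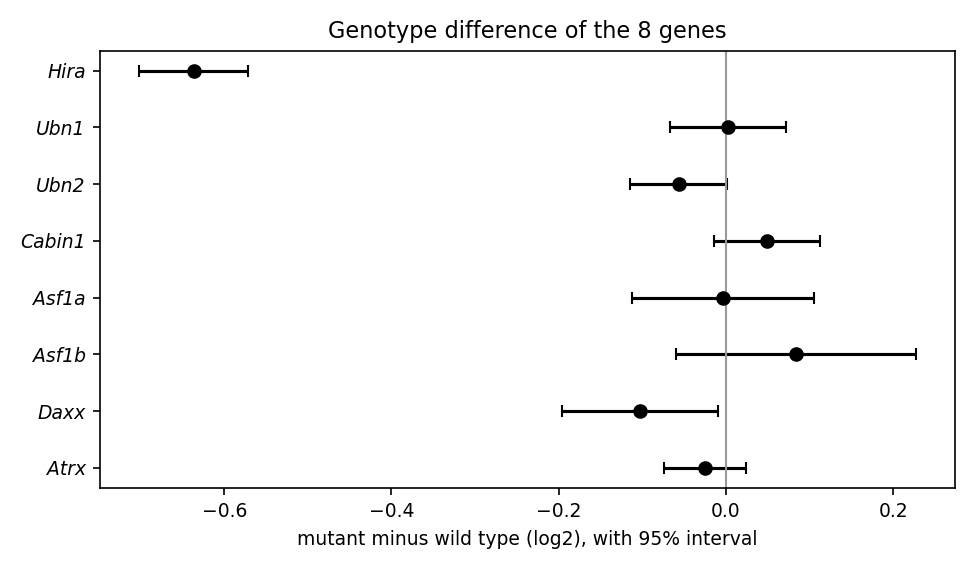
Difference of mutant and wild-type means (log2) with its 95% interval for the 8 genes. Hira lies at -0.64 (-0.70 to -0.57); the points of the partners lie between -0.10 (Daxx) and 0.084 (Asf1b).

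The change of Hira was set against that of each partner in the same mice. The log2 value of Hira minus that of the partner was lower in all 12 mutants than in all 12 wild types for each of the 7 partners. Such a difference between 2 probe sets is no ratio of transcripts, and only its shift between genotypes was read. Between genotypes it moved by -0.64 for Ubn1, -0.58 for Ubn2, -0.69 for Cabin1, -0.63 for Asf1a, -0.72 for Asf1b, -0.53 for Daxx and -0.61 for Atrx. The genotypes did not overlap in Hira alone, and the partners' own log2 differences lay between -0.10 for Daxx and 0.08 for Asf1b, so these shifts largely repeat the decrease of Hira. They are given as a description and are no further test.

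Within a genotype, mice with more Hira signal were compared for their partner levels. The 14 relations, 7 partners in 12 mutants and in 12 wild types, had Pearson r from -0.58 to 0.51, and none passed after adjustment (permutation tests, two-sided; 1 had an unadjusted p under 0.05). That relation was Ubn2 in mutants, with r = -0.58 (permutation p = 0.0461, adjusted 0.645) and Spearman rho = -0.42 (permutation p = 0.178, adjusted 0.956). Without the 2 mutants farthest from the median of Hira, r was -0.60, and in wild types it was -0.26 (permutation p = 0.418, adjusted 0.924) and turned to 0.11 without the 2 wild types farthest from their own median of Hira. Asf1b in mutants had r = 0.51 (permutation p = 0.0925, adjusted 0.648) and rho = 0.62 (permutation p = 0.0344, adjusted 0.482). Its r was 0.84 without the 2 mutants farthest from the median. In wild types r was 0.24 (permutation p = 0.456, adjusted 0.924) and 0.36 without the 2 farthest. The sign was thus the same, while the size of r varied with the mice kept.

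Genes elsewhere that followed a member from mouse to mouse were ranked by the mean of the Pearson correlations within the 12 mutants and within the 12 wild types, as a description over 18821 genes and without a test. All values of a mouse come from the same RNA and the same array. The nearest to Hira were Gtpbp3, an enzyme of mitochondrial tRNA modification (0.78), the endothelial gene Ecscr (0.77) and Bmper, a modulator of BMP signalling (0.70). Ubn1 was nearest to Ankrd13d (0.76), Zkscan3 (0.69) and the cell-cycle factor E2f3 (0.67, from 0.43 in mutants and 0.91 in wild types). For Cabin1 they were Edc4, a factor of mRNA decapping (0.84), Celsr2, a planar polarity cadherin (0.84), and Scap, the sterol sensor of the SREBP pathway (0.80). Asf1a followed Ecd (0.83), Serpini1, which encodes neuroserpin (0.80), and Nsrp1, a splicing regulator (0.78). Daxx was nearest to 9930014A18Rik (0.79), the activin subunit Inhbb (0.78) and Ankrd54 (0.75). Atrx was nearest to Zfp735 (0.76), Apobr (0.74) and Inhbe (0.73). No gene of the 8 was among the 3 nearest of these 6 members.

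The wider network was taken from 6 lists of 80 genes in all, of which 68 had a probe set with a single symbol. None of the 68 passed the test (limma), against 0.76% of all genes. Of all genes 11.9% had an unadjusted p under 0.05, and 10 of the 68 did. Their log2 fold changes were small and leaned downwards: 53 lay below 0 and 15 above, with a median of -0.025, where 51.0% of all genes lay below 0 with a median of -0.0014. The lean varied with the arrays and the scale. It was 47 of 68 without the mutants of replicates 5, 9 and 10 and 46 of 68 after quantile normalization. With median centring it was 55 of 68, beside 54.4% of all genes. Over arrays 1 to 12 it was 47 of 68, beside 56.6% of all genes. Over arrays 13 to 24 it was 50 of 68, beside 46.3%. Among genes in the brighter part of the array, above the median level, 64.8% of all genes lay below 0 and 45 of 53 network genes.

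HIRA-binding proteins numbered 9, of which 5 lay below 0, with a median of -0.024. Rpa3, the small subunit of the single-stranded DNA binder RPA that recruits HIRA, had a mutant mean of 6.59 ± 0.09 (SD, n = 12) and a wild-type mean of 6.77 ± 0.19, a log2 difference of -0.18 ± 0.06 (SE; limma, adjusted p = 0.190). All 12 mutants lay below the wild-type median of Rpa3, which was named for its small p, so this count is no further test. Rpa3 was represented by the brighter of 2 probe sets. The H3K36 methyltransferase Nsd2 had a difference of -0.090 ± 0.036 (adjusted p = 0.317). Of 10 calcineurin and MEF2 partners of Cabin1, 7 lay below 0, with a median of -0.015. Among them the regulatory subunit Ppp3r2, known from testis, had 0.20 ± 0.08 (adjusted p = 0.346) and Ppp3r1, the form of brain, -0.043 ± 0.028 (adjusted p = 0.577). The Ppp3r2 probe set was dim, at percentile 13.7 of brightness over all genes, against percentile 97.5 for Ppp3r1. Background signal limits the precision of so dim a probe set.

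Of 13 partners of Daxx and Atrx, among them proteins of PML bodies and heterochromatin, 11 lay below 0, with a median of -0.034. The deacetylase Hdac2 had a log2 difference of -0.096 ± 0.036 (SE; limma, adjusted p = 0.283), and Cbx5, the heterochromatin protein HP1 alpha, -0.077 ± 0.029 (adjusted p = 0.287). In the group that supplies H3-H4 pairs, with the Asf1 kinases and CAF-1, 12 of 14 lay below 0 (8 of 14 without the mutants of replicates 5, 9 and 10) and the median was -0.025. Its smallest p-values were those of Hat1, which acetylates new histone H4, at -0.11 ± 0.04 (adjusted p = 0.270) and of the histone-binding Rbbp7 at -0.079 ± 0.040 (adjusted p = 0.442). Rbbp7 was represented by the brighter of 2 probe sets.

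Of 13 chaperones linked to transcription or to H2A-H2B, 11 lay below 0, with a median of -0.042. Dek, a chromatin protein that also takes up H3.3, came nearest to the threshold: the mutant mean was 9.04 ± 0.06 (SD, n = 12) and the wild-type mean 9.14 ± 0.04. Every one of the 12 mutants lay below the wild-type median of Dek, which was named for its small p, so this count is no further test. The log2 fold change was -0.096 ± 0.024 (SE; limma, adjusted p = 0.0558), and it passed under some other settings, given among the processing alternatives. Anp32e, the chaperone that removes H2A.Z, had -0.11 ± 0.04 (adjusted p = 0.317).

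The cargo itself was in the list of H3.3 genes and remodellers, 9 genes of which 7 lay below 0 with a median of -0.010; after quantile normalization 4 did, with a median of 0.0018. Both genes of H3.3 make the same protein. H3f3b had a mutant mean of 11.02 ± 0.04 (SD, n = 12) and a wild-type mean of 11.08 ± 0.04, a log2 fold change of -0.065 ± 0.021 (SE; limma, adjusted p = 0.188), with all 12 mutants below the wild-type median. H3f3b was named for its small p, so the place of its mutants is no further test. H3f3a, named after its value was seen, had 0.0028 ± 0.036 (adjusted p = 0.986). That value is from the brightest of 4 probe sets of H3f3a, while H3f3b had 1. H2az1, a gene of the variant H2A.Z, had -0.081 ± 0.040 (adjusted p = 0.426), from the brighter of 2 probe sets.

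**Figure D4:**
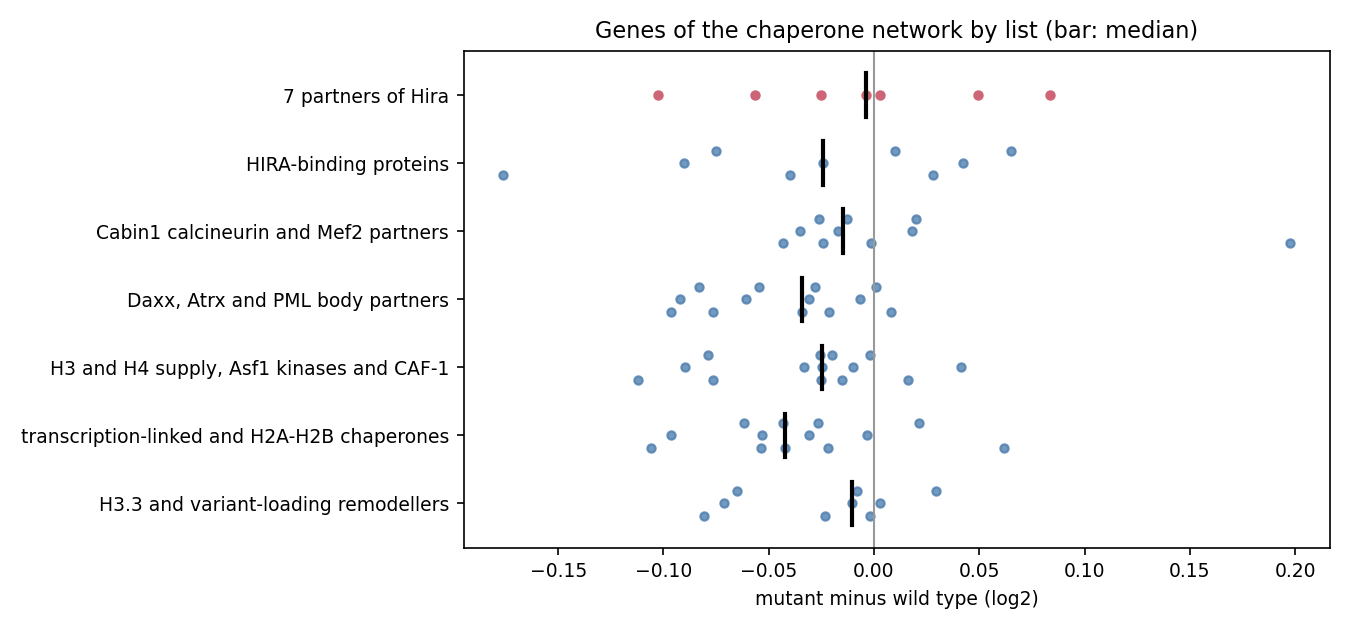
Log2 difference between mutant and wild-type means for the 7 partners (red) and for the 68 genes of the 6 network lists (blue), 1 point per gene, with the median of each list as a bar. The list medians lie between -0.042 and -0.0037, and no point passed the test.

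The arrays were alike, with pairwise correlations over genes of 0.994 to 0.997, with 14.7% of their variance along the first principal component. The labelled tissue was checked with 7 measured markers of cortical neurons, whose probe sets all lay at or above percentile 83.7 of brightness; the table gives no detection call, so absence cannot be stated. Of 51 measured markers of cell types and neighbouring tissues none passed the test (limma). An unadjusted p under 0.05 was found for 6 of them and for 11.9% of all genes. The 4 striatum markers had a median of 0.11, with 3 above 0 and 2 at an unadjusted p under 0.05, and summed log2 values of 30.4 to 31.5 in mutants and 30.1 to 31.1 in wild types. The 4 blood markers had a median of -0.56, with all below 0 and 3 at an unadjusted p under 0.05. The lowest of them, at -1.20, was also the lowest log2 fold change of all genes tested. Summed log2 values of the blood markers were 22.8 to 26.7 in mutants and 24.3 to 35.7 in wild types. The part of both lists in the values of the 8 genes was not tested.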

How the data were processed

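The authors deposited 1 log2 value per probe set and array for 35556 probe sets and 24 arrays; RMA is named in the submitters' processing notes, with no version, and the genome build is not given in the sources used here. Per the labels, RNA was extracted with a miRNeasy kit and labelled as whole-transcript cDNA. Of the probe sets, 21219 had 1 gene symbol in the platform annotation; a gene was represented by the brightest of these over the 24 arrays, which gave 18821 genes, 18791 of them matched to RefSeq GRCm38.p6 by Entrez identifier. Genotypes were compared with limma 3.58.1 in R 4.3.3 (lmFit, eBayes; no term but genotype) over all genes, with Benjamini-Hochberg adjustment and a threshold of 0.05; adjusted p-values of genes are from this fit wherever no other test is named. Differences between paralogs and correlations used permutation tests with 100000 resamples (Python 3.11.15). The same test of Hira minus each partner was planned and run, but its p-values are not given, since the separation of Hira alone decides them. The limma step was tested on simulated data. The members and lists were chosen with earlier results of these data known. Named were the 8 members, the neighbours of Hira, the 2 genes with the smallest p of each list, and the 3 genes most like each of 6 members. Precision is limited by the 12 arrays per genotype and, for dim probe sets such as that of Asf1b, by background signal.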

Additional observations from a re-analysis of the deposited data

How the results depend on the processing

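Hira kept its direction and passed the test under all 13 other settings, with log2 fold changes of -0.67 to -0.61, and with any 1 array left out, at -0.65 to -0.63; no partner passed under any of them. There were 3 partners whose value, never past the threshold, changed sign: Ubn1 had -0.0021 with median centring and -0.063 over arrays 13 to 24, Asf1a 0.0080 with quantile normalization, 0.075 over arrays 13 to 24 and 0.0039 with the split of the array order as a term, and Ubn2 0.00040 over arrays 1 to 12. With 1 array left out, Ubn1 lay between -0.012 and 0.016 and Asf1a between -0.018 and 0.029. The count of network genes that passed was 0 in the main fit and 1 with array weights, with the filter on genes below the 25th percentile of brightness, with the filter at the median, and with the split of the array order as a term; that gene was Dek (limma, adjusted p = 0.0499, 0.0352, 0.0283 and 0.0311). Leaving out 1 array gave counts of 0 to 1, and the 1 was Dek without mutant replicate 5 or 6 or wild type replicate 7 or 11 (adjusted p 0.0293 to 0.0490). In all, 58 genes passed in arrays 1 to 12 and 57 in arrays 13 to 24, against 143 with all arrays, which hold more mice. The groups share replicate numbers 1 to 12, but the labels tie no number to a litter. Deviations of mice of the same number correlated at -0.076 to 0.31, over 0.1 in 6 of 12. The median was 0.096 for mice of the same number and -0.014 for mice of different numbers. Of 12 mutants, 2 correlated best with the wild type of their own number. With the replicate block the log2 fold change of Hira was -0.64 (limma, adjusted p = 7.99e-09), 147 genes passed in all against 143 without it, and the block changed no call among the 8 members and the network genes. The filter at the median left Asf1b without a value.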
